A study of Rattus norvegicus with 28 samples.

Results

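The 100 genes described here are those whose levels differed most between replicate libraries of the same group, out of 15635 genes in the deposited table. They were chosen by that spread. Levels were expressed as log2(CPM + 1), where CPM is the count scaled to a library total of 1000000, and the SD of this value was taken within each of the 4 groups and averaged over them. A gene had to average at least 5 CPM over 28 libraries and to differ by less than 1 in mean log2(CPM + 1) between the H3.3WT libraries of the nucleus accumbens (NAc) and of the medial prefrontal cortex (mPFC). These conditions left 10894 genes, and the 100 with the highest spread are called the variable genes below. The rule also left out 16 listed IDs and the 100 most abundant genes, and 0 of either would have ranked in the first 100.

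The libraries came from male Sprague-Dawley rats, labelled as young adults of 200 to 250 g, all with 10 days of cocaine self-administration in extended sessions behind them. Each group of 7 libraries is one region with one lentivirus, pCDH-H3.3WT or pCDH-H3.3Q5A, giving NAc H3.3WT, NAc H3.3Q5A, mPFC H3.3WT and mPFC H3.3Q5A. All groups carried an H3.3 virus and were tested for cue-seeking after 30 days of viral expression and abstinence, so no group was without virus or without cocaine. The sources used here do not name the promoter of the vector. Whether a library is 1 animal or a pool is not stated, and the p-values reflect only how these libraries vary, which may be technical. Titles also carry a mark, P1 or P2, that the labels do not explain, and a library is called by its group and the number its title gives.

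H3.3 is a histone variant that neurons place into chromatin independently of cell division. Its glutamine near the start of the protein can be joined to dopamine, and the Q5A form carries alanine there. The NAc, in the ventral striatum, is a main target of midbrain dopamine neurons, and the mPFC is a cortical area that projects to it. Sprague-Dawley rats are an outbred stock. In bulk tissue, a change in the number of cells of a type and a change in RNA per cell cannot be told apart. The table gives Ensembl IDs, and 0 of them matched the reference gene table at hand, so the variable genes carry no symbol, position, sequence or known role here. The labelled regions could not be set against marker genes for the same reason.

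Total counts ran from 15.4 M (1 M is 1000000 counts) in NAc H3.3WT replicate 17 to 51.7 M in NAc H3.3Q5A replicate 22. A pair of NAc libraries stood apart over the whole table. Among the 10794 genes that met the same level and region conditions but are not variable genes, NAc H3.3WT replicate 17 held 21.1% of the summed squared deviations from the group means, and NAc H3.3Q5A replicate 3 held 11.98%. The other 26 libraries held between 1.24% and 5.76% each. Replicate 17 had the smallest total, replicate 3 had 19.98 M, and their TMM scaling factors, 0.944 and 0.856, were the lowest of all 28. NAc H3.3Q5A replicate 28, at 17.05 M, held 1.24%. The part of depth or RNA quality in these deviations was not tested.

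The variable genes were modest in level and far above counting error in spread. Their mean levels ran from 5.01 to 328 CPM with a median of 12.8 CPM, against a median of 39.8 CPM for the other 10794 genes. Their mean within-group SD ran from 0.53 to 1.49 with a median of 0.65, where the other genes had a median of 0.16 and a 95th percentile of 0.35. These SDs are the values that chose the genes. The last 5 genes inside the limit had SDs from 0.5311 to 0.5390, and the first 5 outside had 0.5279 to 0.5310, so the limit falls within a continuous range. Counting error alone was computed from the Poisson variance at the group mean CPM and the total of each library. It made up a median of 0.890% and at most 2.93% of the within-group variance of a variable gene. Libraries far below the group mean can carry a larger error than this. The highest library of a variable gene exceeded its lowest by a median of 11.3-fold, with a range of 4.51 to 724-fold.

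**Figure D1:**
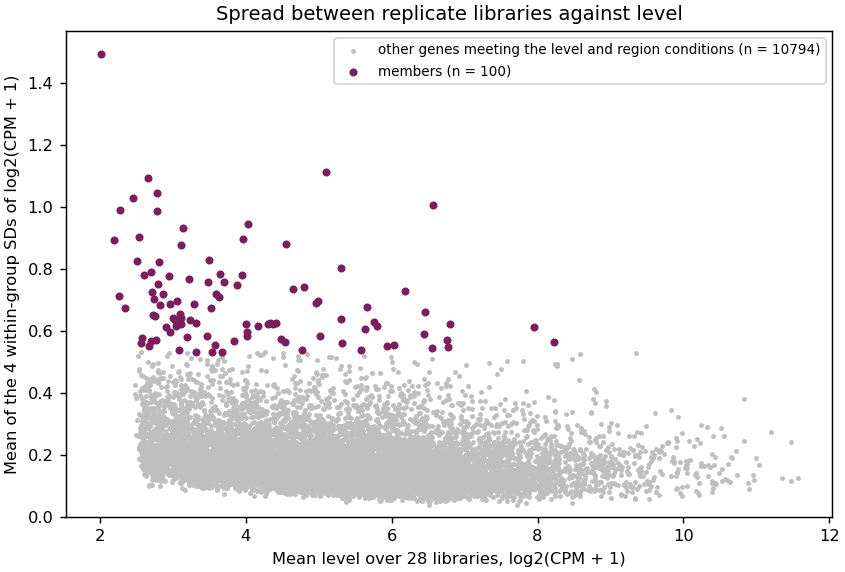
Spread against level for the 10894 genes that met the level and region conditions. The horizontal axis is the mean log2(CPM + 1) over 28 libraries and the vertical axis the mean of the 4 within-group SDs of that value, with the 100 variable genes in colour between 0.53 and 1.49 and the other genes in grey.

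The spread was wide in more than one group for every variable gene. Ranking the 10894 genes by SD in each group separately, 54 of the 100 were in the top 5% (544 genes) in NAc H3.3WT, 96 in NAc H3.3Q5A, 87 in mPFC H3.3WT and 91 in mPFC H3.3Q5A. Of the 100, 37 were in the top 5% in all 4 groups, 54 in 3 groups and 9 in 2 groups. The mean of these 4 SDs chose the genes, which favours such ranks. The size of the spread still differed between groups, with median SDs of 0.52, 0.57, 0.81 and 0.72 in the same order, and mPFC H3.3WT was the group of highest SD for 50 genes. The other 10794 genes had median SDs of 0.19, 0.16, 0.13 and 0.15. For these genes the NAc values were 0.111 without NAc H3.3WT replicate 17 and 0.0998 without NAc H3.3Q5A replicate 3, both below those of mPFC. For the variable genes they were then 0.35 and 0.53.

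A single library set much of the spread in mPFC H3.3WT. mPFC H3.3WT replicate 13 was the library farthest from its group mean for 50 of the 100 variable genes and held 18.5% of their summed squared deviations. For the other 10794 genes these values were 5.19% of genes and 5.76%. Without replicate 13 the median SD of the variable genes in mPFC H3.3WT was 0.40 in place of 0.81, while that of the other genes was 0.13 with or without it. This library stood high, since 53 variable genes were more than 1 log2 unit above their group mean in it and 0 were as far below. The 100 genes summed to 6981 CPM in replicate 13 and to 2237 to 3374 CPM in the other mPFC H3.3WT libraries. At 38.8 M it was the deepest library of its group, followed by replicate 21 at 38.6 M, where the 100 genes summed to 2237 CPM.

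The pair of libraries that stood apart over the whole table weighed less on the variable genes. NAc H3.3WT replicate 17 was the farthest library for 39.3% of the other genes but for 13 of the 100 variable genes, and NAc H3.3Q5A replicate 3 for 25.7% and for 5. mPFC H3.3Q5A replicate 2 and NAc H3.3Q5A replicate 19 held 8.30% and 6.31% of the squared deviations of the variable genes, against 3.22% and 2.21% for the other genes. For NAc H3.3WT replicate 17 the share was 7.18% and for NAc H3.3Q5A replicate 3 it was 4.99%. In the plot of shares by library, the tallest coloured bar and the tallest grey bar therefore belong to different libraries.

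**Figure D2:**
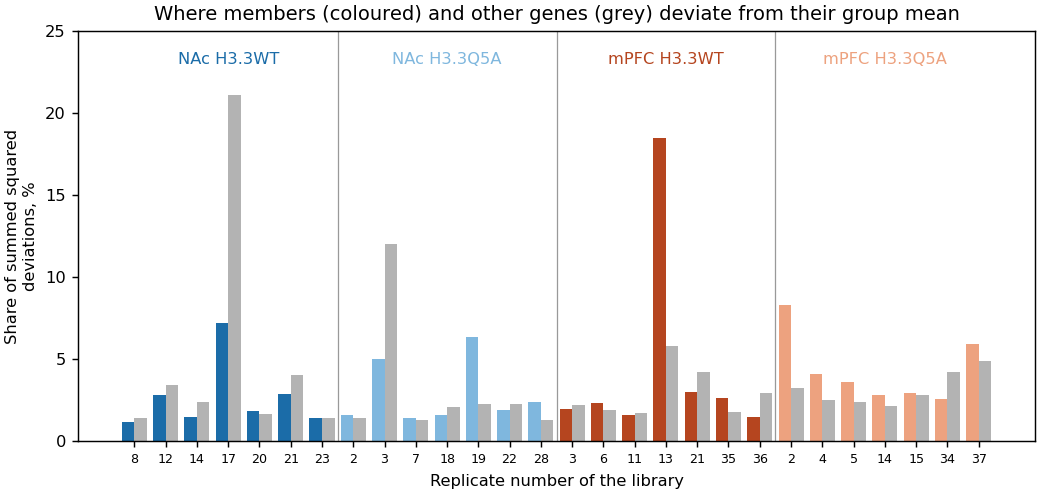
Share of the summed squared deviations of log2(CPM + 1) from the group mean held by each library, in percent, for the 100 variable genes (coloured bars) and the 10794 other genes (grey bars). mPFC H3.3WT replicate 13 holds 18.5% for the variable genes and NAc H3.3WT replicate 17 holds 21.1% for the others.

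Most of the variable genes did not vary one by one but in blocks. Deviations from the group mean were correlated between genes over the 28 libraries and the genes were joined by average linkage, with a tree cut at a distance of 0.5 (1 minus Pearson's r). This gave 5 clusters of at least 4 genes, called A to E, which held 73 genes, and 27 genes stayed outside. Cluster A held 49 genes, B held 8, C held 7, D held 5 and E held 4. The correlations are descriptions over 28 libraries that the genes share, and the clusters were made from the same values they describe. Over all pairs the median r was 0.15 among variable genes and 0.10 among the other 10794 genes.

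**Figure D3:**
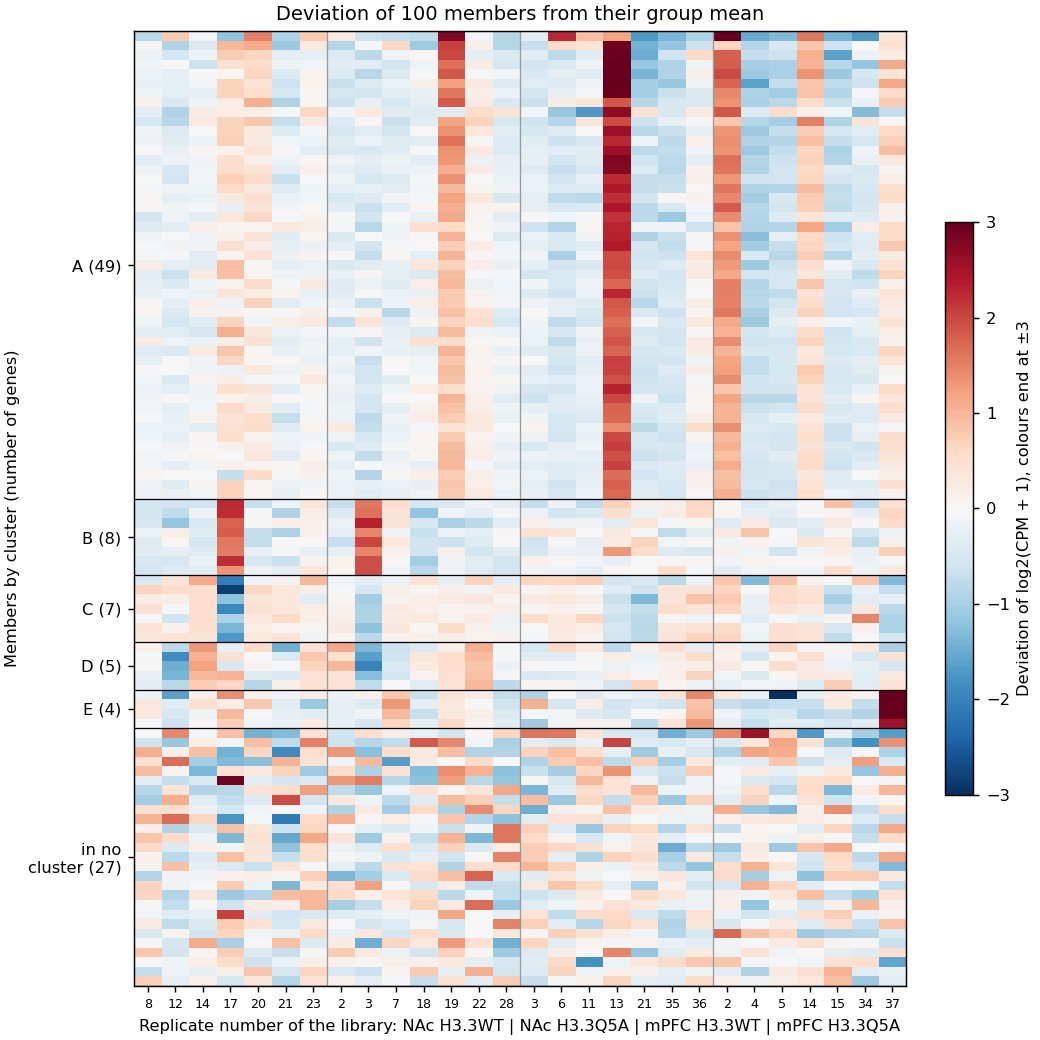
Deviation of log2(CPM + 1) from the group mean for the 100 variable genes (one line each, ordered by cluster) in the 28 libraries (one column each, named by replicate number). Red is above and blue below the group mean, with colours ending at 3 units either way. Cluster A is red in mPFC H3.3WT replicate 13 and mPFC H3.3Q5A replicate 2, and clusters B and C take opposite colours in NAc H3.3WT replicate 17.

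Cluster A, 49 genes with mean levels of 5.01 to 328 CPM, rose and fell as one block, with a median r of 0.91 between its genes. Its mean log2(CPM + 1) had a lowest, median and highest value of 3.13, 3.31 and 3.78 in NAc H3.3WT and of 2.997, 3.15 and 4.45 in NAc H3.3Q5A. In mPFC H3.3WT these were 3.19, 3.53 and 6.004, and in mPFC H3.3Q5A 3.09, 3.50 and 5.25. The groups overlapped in their lower ranges, and the highest library of each mPFC group lay above every NAc library. In NAc H3.3WT the values were graded, and in the other groups 1 to 3 libraries stood above the rest.

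In mPFC H3.3WT the high library was replicate 13 at 6.004, with the next at 3.84. All 49 genes were above their group mean in it, and 48 had their highest value of the group there. Its genes exceeded the median of the other 6 libraries by 1.79 to 3.82 log2 units, with a median of 2.39, or 5.25-fold on the log2(CPM + 1) scale. In mPFC H3.3Q5A, replicates 2, 14 and 37 stood at 5.25, 4.55 and 4.28 and the other 4 between 3.09 and 3.50. In NAc H3.3Q5A, replicate 19 stood at 4.45 and the next at 3.53, with 48 of 49 genes above the group mean in replicate 19. High libraries thus occurred in both regions, and with either virus in mPFC.

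The block did not rest on its highest library. Without mPFC H3.3WT replicate 13 the median r in cluster A was 0.84, and without mPFC H3.3Q5A replicate 2 as well it was 0.78. When the tree was made again without each library in turn, the largest cluster held 48 to 50 genes, and at least 48 of them were those of cluster A each time. Membership in the 100 depended more on replicate 13: chosen again without it, 72 of the 100 genes stayed, among them 22 of the 49 of cluster A. Of 11738 further genes at 5 CPM or more, 303 followed the mean of cluster A with r of at least 0.7 and 0 ran against it with r of −0.7 or less.

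Cluster B was led by the pair of NAc libraries that stood apart over the whole table. The 8 genes of cluster B had a mean log2(CPM + 1) of 6.98 in NAc H3.3WT replicate 17, where the other 6 libraries lay between 4.70 and 5.28, and of 7.07 in NAc H3.3Q5A replicate 3, where the others lay between 4.56 and 5.48. All 8 genes were above their group mean in both. In mPFC the cluster ran from 4.29 to 4.88 with H3.3WT and from 4.31 to 5.01 with H3.3Q5A, with no library apart. Median r in cluster B was 0.77, and 0.28 without replicates 17 and 3.

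The 7 genes of cluster C took the opposite course in the same libraries. Their mean log2(CPM + 1) was 3.63 in NAc H3.3WT replicate 17, against 5.50 to 5.94 in the others of the group, and 4.78 in NAc H3.3Q5A replicate 3, against 5.60 to 5.80. The means of clusters B and C had an r of −0.81 over the 28 libraries. Unlike B, cluster C also divided the mPFC libraries: replicates 13 and 21 of H3.3WT stood at 5.02 and 4.77 below 5 libraries between 5.74 and 5.90. With H3.3Q5A, replicates 37, 15 and 4 stood at 4.63, 4.91 and 5.07 and the other 4 between 5.68 and 5.99. Without replicates 17 and 3, median r in cluster C was 0.61, close to the 0.66 with them.

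Many genes outside the 100 shared these 2 profiles. Of the 11738 further genes, 615 followed cluster B and 2142 ran against it at an r of 0.7 or more in size, and for cluster C these numbers were 1817 and 909. For clusters D and E they were 146 and 30, and 7 and 1. The counts were not made again with libraries left out.

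Cluster D, 5 genes of 7.80 to 119 CPM, varied in its mean level in NAc and little in mPFC. Its mean log2(CPM + 1) was 4.43 ± 0.75 (SD, n = 7) in NAc H3.3WT and 4.10 ± 0.79 in NAc H3.3Q5A, against 3.96 ± 0.18 and 4.05 ± 0.19 in the mPFC groups. In NAc H3.3WT it ran from 3.15 in replicate 12 to 5.49 in replicate 14, and in NAc H3.3Q5A from 2.69 in replicate 3 to 5.05 in replicate 22. NAc H3.3Q5A replicate 3 held 26.4% of its squared deviations and NAc H3.3WT replicate 12 held 21.5%. Median r was 0.61, and 0.40 without both. Taken singly, the 5 genes had SDs from 0.665 to 1.03 in the NAc groups and from 0.123 to 0.535 in the mPFC groups.

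Cluster E, 4 genes of 9.08 to 49.2 CPM, was led by one mPFC library. Its mean log2(CPM + 1) was 7.30 in mPFC H3.3Q5A replicate 37, with the other 6 libraries of the group between 2.62 and 3.82. In mPFC H3.3WT replicate 36 stood at 4.92 and the others between 3.39 and 3.86. In NAc the values ran from 3.39 to 4.97 with H3.3WT and from 4.19 to 5.64 with H3.3Q5A. Median r was 0.74, and 0.49 without replicate 37. Without that library the tree had 4 clusters in place of 5.

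**Figure D4:**
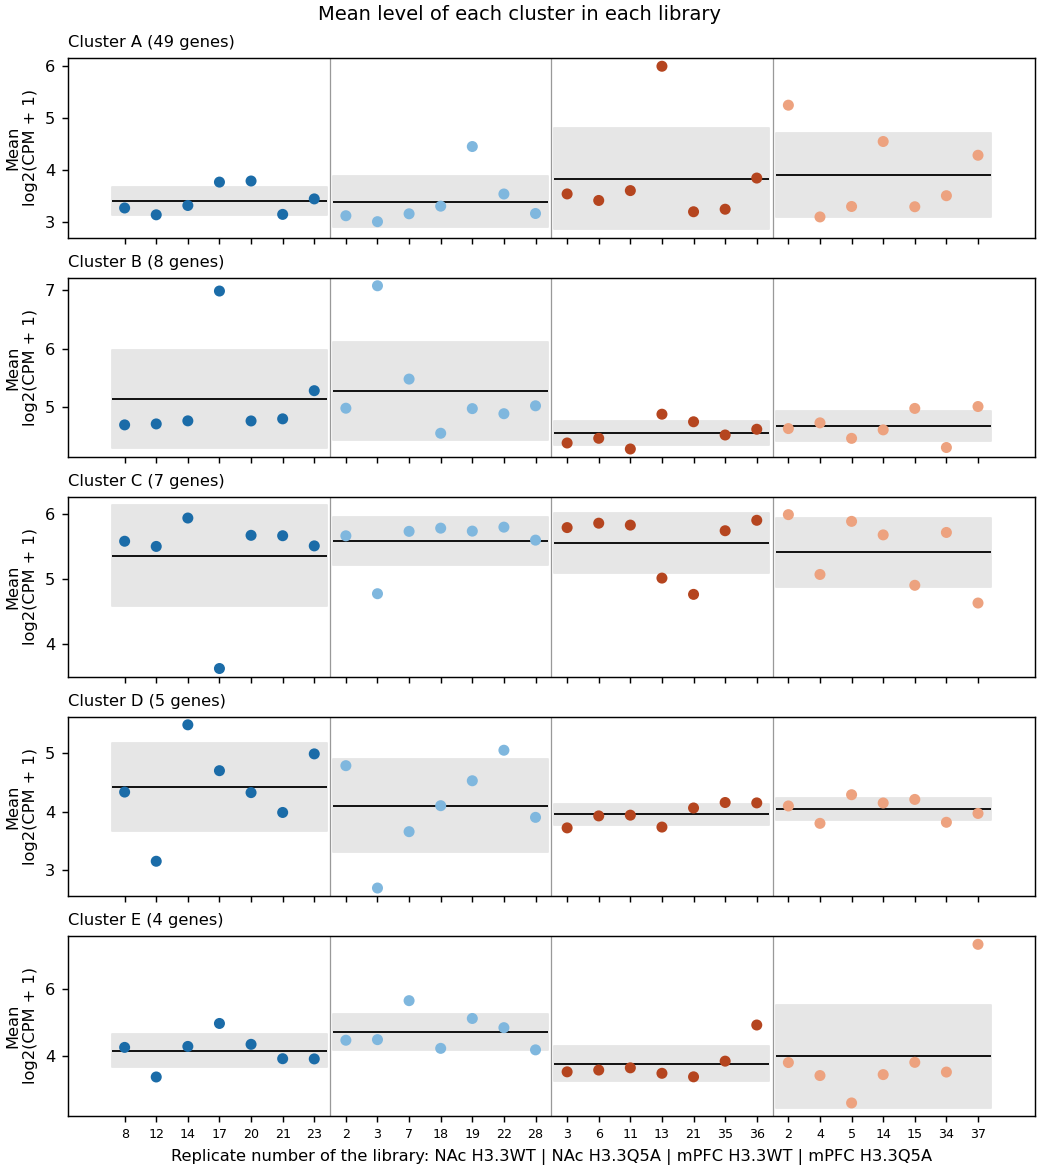
Mean log2(CPM + 1) of the genes of each cluster (vertical axes) in each library (horizontal axis, replicate numbers, groups from left to right as labelled). Points are libraries, black lines group means and grey bands 1 SD either way (n = 7). Cluster A reaches 6.004 in mPFC H3.3WT replicate 13, clusters B and C part in NAc replicates 17 and 3, and cluster E reaches 7.30 in mPFC H3.3Q5A replicate 37.

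Of the 27 genes outside the clusters, 10 stood alone in the tree, and the others formed 3 groups of 3 genes and 4 pairs. The median r between them was 0.01, and 15 different libraries were the farthest from the group mean for at least 1 of them. No library was the farthest for more than 4. The farthest library held a median of 18.6% of a gene's squared deviations here, against 34.7% over all 100 genes. Of the 27, 17 were in the top 5% by SD in all 4 groups, against 20 of the 73 genes in clusters. In 1 group of 3 the genes moved almost as one, with r from 0.973 to 0.991 between them and mean levels of 34.4 to 80.6 CPM. In the other 2 groups of 3, r ran from 0.47 to 0.73 and from 0.55 to 0.79, and in the pairs it was 0.55, 0.58, 0.71 and 0.74. The mean log2(CPM + 1) of the closest group was highest within NAc H3.3Q5A in replicate 28, at 7.01 with the next library of that group at 5.48. Without positions or symbols, it could not be checked whether these genes share reads.

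Differences between P1 and P2 libraries made up a minor part of the spread in most variable genes. The differences between marks within groups made up a median of 14.1% of a variable gene's squared deviations, against 17.6% for the other 10794 genes. The share passed 30% in 9 of the 100 variable genes, 7 of which were outside the clusters, and in 12.3% of the other genes. The highest share was 71.0%. These values are part of the spread that chose the genes and were not tested. Libraries that differ at random also give such a share, since the difference of each group counts in whichever direction it lies. That part was not computed, so no effect of the marks is read from these values.

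The 4 genes of highest spread show the kinds of variation in single transcripts. The first was ENSRNOG00000003666, a member of cluster A with a mean SD of 1.49. Its lowest, median and highest levels were 0.453, 2.09 and 8.55 CPM in NAc H3.3WT and 0.469, 0.751 and 17.9 CPM in NAc H3.3Q5A. In mPFC H3.3WT they were 0.725, 3.56 and 26.2 CPM, and in mPFC H3.3Q5A 0.559, 1.05 and 81.9 CPM. In NAc H3.3Q5A only replicate 19 was high, with the next library at 2.35 CPM. In each of the other groups a few libraries were high and the rest near or below a few CPM. Its highest mPFC H3.3WT library was replicate 6, not replicate 13, which held 11.8 CPM, and its r with the mean of the rest of cluster A was 0.65.

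ENSRNOG00000056970, in cluster E, had a mean SD of 1.11 and one library far out on either side. Its levels in mPFC H3.3Q5A were 0.425 CPM in replicate 5, 307.6 CPM in replicate 37 and between 17.6 and 27.5 CPM in the other 5. In the other groups its lowest, median and highest levels were 11.1, 40.1 and 96.6 CPM (NAc H3.3WT), 36.3, 67.0 and 108 CPM (NAc H3.3Q5A) and 12.7, 22.0003 and 69.7 CPM (mPFC H3.3WT). The library at 0.425 CPM was more than 10-fold below every other library of the study.

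ENSRNOG00000014350, outside the clusters with a mean SD of 1.09, differed between the marks in mPFC. In mPFC H3.3WT its 4 P1 libraries lay between 3.95 and 20.2 CPM and its 3 P2 libraries between 1.56 and 3.73 CPM. In mPFC H3.3Q5A the 3 P1 libraries lay between 12.3 and 49.5 CPM and the 4 P2 libraries between 1.68 and 6.49 CPM. The marks did not overlap in either mPFC group. They overlapped in NAc, where P1 ran from 5.57 to 17.2 and P2 from 1.51 to 11.3 CPM with H3.3WT, and P1 from 1.57 to 4.51 and P2 from 1.64 to 5.05 CPM with H3.3Q5A. Differences between the marks within groups made up 57.7% of its squared deviations. They are part of the spread for which this gene was picked, and the split by mark was not tested.

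ENSRNOG00000058006, also outside the clusters with a mean SD of 1.05, ranged widely in 3 of the groups and stood out in 1 library of the other. Its lowest, median and highest levels were 1.65, 4.47 and 15.5 CPM in NAc H3.3WT and 1.94, 2.75 and 19.7 CPM in NAc H3.3Q5A. In mPFC H3.3WT 6 libraries lay between 2.78 and 3.62 CPM and replicate 13 at 20.4 CPM. In mPFC H3.3Q5A the values were 2.66, 15.1 and 32.2 CPM, spaced over the whole range.

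**Figure D5:**
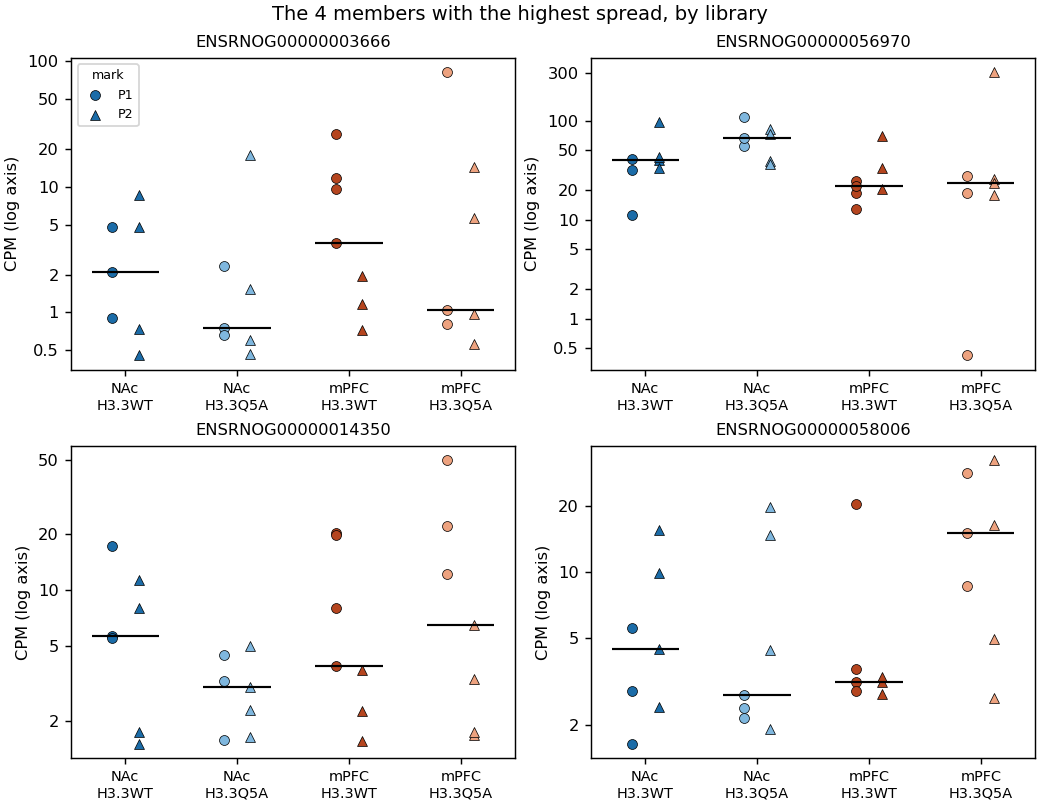
CPM (log axes) of the 4 genes of highest spread in each library, by group, with circles for P1 and triangles for P2 libraries and black lines for group medians. ENSRNOG00000056970 reaches 307.6 and 0.425 CPM in 2 libraries of mPFC H3.3Q5A, and for ENSRNOG00000014350 P1 lies above P2 in both mPFC groups.

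The study asked whether H3.3Q5A changes the transcriptome relative to H3.3WT in each region. The difference in means between viruses played no part in choosing the variable genes, and the mark was a term of the fit. In NAc, 0 of the 100 passed the test (edgeR quasi-likelihood test, adjusted p under 0.05), as 0% of all 15315 genes tested did. At an unadjusted p under 0.05 there were 6, of which 1 was higher and 5 lower with H3.3Q5A, against 7.84% of all genes (3.52% higher, 4.32% lower) and 7.3% of the other 10794, so the share of the variable genes was near the background. DESeq2 called 0 of them, with 3 given no adjusted p, and 9 genes in the whole table. The median log2 fold change of H3.3Q5A over H3.3WT was 0.01, with 54 of 100 above 0, against 0.01 and 51.5% for all genes.

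The rule chose these genes for their within-group spread, so their comparisons were bound to be less precise than those of the table. The median SE of their log2 fold change in NAc was 0.30, against 0.12 for all genes, and the 95% confidence interval lay within 1 log2 unit either way for 57 of the 100, against 94.6% of all genes. In mPFC the median SE was 0.43 against 0.10, and the interval lay within 1 unit for 38 of the 100 against 94.4%. An interval within 1 log2 unit still allows a difference up to that size, so equal means were not shown in either region.

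Of the variable genes in NAc, ENSRNOG00000061254, a member of cluster E, had the smallest p among those higher with H3.3Q5A. Its lowest, median and highest levels were 4.32, 6.91 and 12.4 CPM with H3.3WT and 7.91, 9.69 and 18.7 CPM with H3.3Q5A. The groups overlapped, although all 7 H3.3Q5A libraries lay above the H3.3WT mean. Its log2 fold change was 0.73 (SE 0.24, edgeR adjusted p = 0.637). ENSRNOG00000056970, whose levels are given above, followed with 0.68 (SE 0.38, edgeR adjusted p = 0.668). Neither passed the test. Within the marks, the fold change of ENSRNOG00000056970 was 1.51 among P1 and 0.04 among P2 libraries, and that of ENSRNOG00000061254 was 1.01 and 0.50.

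Among those with lower values with H3.3Q5A in NAc, ENSRNOG00000010977 had levels of 1.47, 5.53 and 7.67 CPM with H3.3WT (lowest, median, highest) and of 1.51, 2.001 and 4.52 CPM with H3.3Q5A. ENSRNOG00000005600 had 5.49, 40.8 and 88.5 CPM with H3.3WT and 4.52, 12.6 and 26.3 CPM with H3.3Q5A. The groups overlapped for both. The log2 fold changes were −1.02 (SE 0.35) and −1.28 (SE 0.46), with an edgeR adjusted p of 0.637 for both. Among P1 and P2 libraries alone, that of ENSRNOG00000005600 was −1.77 and −0.90. These genes were picked by p-value in the same libraries, so the side on which their libraries lie adds no support.

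By cluster in NAc, the median log2 fold changes were 0.04 in A (30 of 49 above 0), 0.08 in B (5 of 8), 0.15 in C (6 of 7), −0.25 in D (0 of 5) and 0.57 in E (4 of 4). None of their genes passed the test. Single libraries turned most of these medians. That of A was −0.19 with 4 of 49 above 0 without NAc H3.3Q5A replicate 19. That of B was −0.42 when NAc H3.3Q5A replicate 3 was left out and 0.71 when NAc H3.3WT replicate 17 was. That of C was −0.02 without replicate 17, and that of D was 0.12 without NAc H3.3WT replicate 14. That of E stayed between 0.37 and 0.79 with each library left out. Over all 100 genes, 26 were above 0 without NAc H3.3Q5A replicate 19. In the P1 libraries by themselves, 32 of 100 were above 0 and 23 had an unadjusted p under 0.05, and among P2 libraries alone 57 and 3, with 0 passing the test in either. Of all genes, 11.4% had an unadjusted p under 0.05 among P1 libraries and 2.43% among P2 libraries.

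In mPFC, 0 of the 100 passed the test, as 0% of 15485 genes did, and DESeq2 called 0 of the 100, with 7 given no adjusted p, and 8 genes in the table. At an unadjusted p under 0.05 there were 6, all higher with H3.3Q5A, against 7.89% of all genes in either direction (8.56% of the other 10794) and 4.27% of all genes in that direction. The median log2 fold change was 0.02 with 55 of 100 above 0, against 0.002 and 50.7% for all genes. That count depended on single libraries: it was 77 without mPFC H3.3WT replicate 13, and 28, 34 and 36 without mPFC H3.3Q5A replicate 2, mPFC H3.3Q5A replicate 14 and mPFC H3.3WT replicate 21. It was 34 among P1 libraries, 76 among P2 libraries and 32 with no term for the mark. Without replicate 13, 15 of the 100 had an unadjusted p under 0.05, and so did 13.04% of all genes.

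The genes of smallest p among those higher with H3.3Q5A in mPFC were ENSRNOG00000059865 and ENSRNOG00000058006. The first had lowest, median and highest levels of 6.79, 7.88 and 12.1 CPM with H3.3WT and of 5.90, 16.3 and 29.7 CPM with H3.3Q5A, which gave a log2 fold change of 0.74 (SE 0.26, edgeR adjusted p = 0.626). The second, whose levels are given above, had a log2 fold change of 1.64 (SE 0.60, edgeR adjusted p = 0.626), which was 2.25 without mPFC H3.3WT replicate 13 and 1.26 without mPFC H3.3Q5A replicate 37. The fold change of ENSRNOG00000059865 was 0.46 among P1 and 1.02 among P2 libraries. The groups overlapped for both, and neither passed the test.

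Among those with lower values with H3.3Q5A in mPFC, ENSRNOG00000028622 had 2.25, 10.0 and 12.5 CPM with H3.3WT and 2.19, 3.66 and 6.84 CPM with H3.3Q5A. ENSRNOG00000006146 had 6.15, 9.09 and 14.2 CPM with H3.3WT and 4.22, 7.79 and 11.5 CPM with H3.3Q5A. Their log2 fold changes were −0.84 (SE 0.42, edgeR adjusted p = 0.626) and −0.34 (SE 0.22, edgeR adjusted p = 0.640). The groups overlapped for both genes.

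By cluster in mPFC, the median log2 fold changes were 0.03 in A (29 of 49 above 0), 0.04 in B (4 of 8), −0.25 in C (2 of 7), 0.10 in D (3 of 5) and 0.67 in E (4 of 4), and none of these genes passed the test. The median of A was 0.63 with 49 of 49 above 0 without mPFC H3.3WT replicate 13, and −0.31 with 2 of 49 above 0 without mPFC H3.3Q5A replicate 2. The median of E was −0.51 without mPFC H3.3Q5A replicate 37. Because the genes of a cluster move together, the number of them on one side carries little more than the value of 1 gene.

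The virus effect was also compared between regions as an interaction (NAc effect minus mPFC effect). Of the 100 genes 0 passed, as 0% of 15635 genes did in edgeR, and DESeq2 called 0 in the table, with 5 of the 100 given no adjusted p. At an unadjusted p under 0.05 there were 2, both negative, against 5.26% of all genes (2.58% positive, 2.68% negative) and 4.71% of the other 10794. The median interaction was 0.08 log2 units with 58 of 100 above 0, against −0.0009 and 49.8% for all genes, and the count of the 100 was 18 without mPFC H3.3WT replicate 13 and 17 among P2 libraries alone. ENSRNOG00000005600 and ENSRNOG00000014350 had interactions of −1.34 (SE 0.52) and −1.82 (SE 0.81). ENSRNOG00000028622 and ENSRNOG00000005479 had 1.10 (SE 0.71) and 0.70 (SE 0.42), and the edgeR adjusted p was 0.904 for each of the 4. ENSRNOG00000005479, in cluster C, had medians of 278 and 326 CPM in NAc and of 305 and 178 CPM in mPFC, with H3.3WT and H3.3Q5A. Its interaction was −0.19 among P1 and 1.43 among P2 libraries alone, and that of ENSRNOG00000005600 was −1.85 and −0.73.

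The regions were compared in the H3.3Q5A libraries, since the rule limited the difference between regions in the H3.3WT libraries. Of the 100 variable genes 21 passed the edgeR test, 7 higher and 14 lower in NAc than in mPFC. Of all 15575 genes tested 56% passed, 28% higher and 27.9% lower, and among the other 10794 genes under the same conditions 54.8% passed. At an unadjusted p under 0.05 there were 31, 10 higher and 21 lower, against 60.9% of all genes (30.6% higher, 30.3% lower) and 60% of the other 10794. The rule chose these genes for a wide spread in the same libraries and for a small difference between regions with H3.3WT, both of which lower the share that passes, so nothing is read from that share. The median SE of their log2 fold change was 0.36 against 0.10 for all genes. With single libraries left out, 20 to 37 of the 100 passed, the highest without NAc H3.3Q5A replicate 19. In the P1 libraries by themselves 18 passed, beside 5478 of 15564 genes in all, and among P2 libraries alone 11, beside 6661 of 15591. DESeq2 called 28, with 7 given no adjusted p, beside 9072 of 15635.

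ENSRNOG00000025787 had the smallest p among the genes higher in NAc. Its lowest, median and highest levels with H3.3Q5A were 3.10, 11.9 and 24.0 CPM in NAc and 1.11, 1.596 and 6.85 CPM in mPFC, a log2 fold change of 2.39 (SE 0.49, edgeR adjusted p = 0.000859). ENSRNOG00000010004, in cluster B, had 9.92, 16.3 and 71.5 CPM in NAc and 5.22, 6.27 and 10.3 CPM in mPFC, a log2 fold change of 1.63 (SE 0.43, edgeR adjusted p = 0.005). Its highest NAc value came from replicate 3, without which the fold change was 1.08 and still passed the test. It was 2.78 among P1 and 0.76 among P2 libraries, and DESeq2 gave this gene no adjusted p. For both genes the regions overlapped, and all 7 NAc libraries lay above the mPFC mean. Both genes were picked by p-value in the same libraries, so that side adds no support. The rule left their H3.3WT medians at 8.06 and 4.01 CPM and at 11.7 and 7.002 CPM in NAc and mPFC.

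Among the genes lower in NAc with H3.3Q5A, ENSRNOG00000005600 had levels of 4.52, 12.6 and 26.3 CPM in NAc and of 23.3, 42.8 and 49.8 CPM in mPFC. Its log2 fold change was −1.48 (SE 0.30, edgeR adjusted p = 0.000667). ENSRNOG00000010977 had 1.51, 2.001 and 4.52 CPM in NAc and 3.23, 7.88 and 18.7 CPM in mPFC, a log2 fold change of −1.74 (SE 0.39, edgeR adjusted p = 0.00181). Only the ends of the ranges overlapped, which adds no support, since these genes too were picked by p-value in the same libraries. Differences between P1 and P2 libraries within groups, in either direction, made up 44.5% and 34.9% of the squared deviations of these genes. For ENSRNOG00000010004 the share was 39.4%, and NAc H3.3Q5A replicate 3, a P1 library, held 44.2% of its squared deviations. Its highest NAc H3.3WT library, replicate 17 at 37.8 CPM, is a P2 library. With H3.3WT the medians of ENSRNOG00000005600 were 40.8 and 35.9 CPM in NAc and mPFC, while its mean log2(CPM + 1) was lower in NAc (4.81 and 5.36). The H3.3WT medians of ENSRNOG00000010977 were 5.53 and 13.6 CPM, also lower in NAc. All 4 genes passed the test with each library left out, and among P1 libraries alone ENSRNOG00000025787 (edgeR adjusted p = 0.0593) and ENSRNOG00000010977 (edgeR adjusted p = 0.152) did not.

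By cluster with H3.3Q5A, 47 of the 49 genes of cluster A had lower values in NAc than in mPFC, with a median log2 fold change of −0.66, and 6 passed the test. The cluster A median moved to −0.19 once mPFC H3.3Q5A replicate 2 was left out, one of the 3 high libraries of the group. In cluster B 7 of 8 genes had higher values in NAc with a median of 0.81, and 3 passed. This median was 0.38 without NAc H3.3Q5A replicate 3. In cluster D 1 of 5 genes passed and in clusters C and E 0, with medians of 0.31, 0.41 and 0.13. The median of D was 0.08 without NAc H3.3Q5A replicate 22, that of C 0.22 without mPFC H3.3Q5A replicate 37, and that of E 1.41 with 4 of 4 above 0 without the same mPFC library. Of the 27 genes outside the clusters 11 passed, 9 of the 27 having a fold change above 0. Of all genes tested 56% passed, and of the other 10794 genes 54.8%, and as above nothing is read from these counts. Because the genes of a cluster move together, 47 of 49 on one side carries little more than the value of 1 gene. With H3.3WT the mean log2(CPM + 1) of cluster A was 3.40 in NAc and 3.83 in mPFC, and that of B was 5.15 and 4.56.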

How the data were processed

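Bulk RNA was sequenced in 28 libraries, 7 in each group. The authors deposited 1 table of raw read counts per gene, with no normalization. HISAT2 2.1.0 and featureCounts 2.0.1 appear in the submitters' processing notes, as do DESeq2 1.6.3 and the build rn6. Their settings and strand handling are not given in the sources used here. Every gene of the table has at least 10 counts in at least 14 libraries.

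From the counts, CPM was computed with column sums and log2(CPM + 1) taken from it. Groups were compared with edgeR 4.0.16 (R 4.3.3, TMM scaling, low-count filter, quasi-likelihood test, Benjamini-Hochberg adjustment over all genes tested), with the P mark as a term. Python 3.11.15 and scipy 1.17.1 made the tree. The virus comparisons used the libraries of 1 region, the interaction all 28, and the region comparison the H3.3Q5A libraries. The SE was taken as the size of the log2 fold change divided by the square root of the test's F value. The confidence intervals were built from it, so both are approximate. The test was checked on simulated counts. Alternatives were DESeq2 1.42.0, no filter, no mark term, each library left out and, for membership, other scaling, pseudocount and measures of spread. P1 and P2 libraries alone, other tree cuts and 2 libraries left out together were added after seeing the data.

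The members and lists were chosen with earlier results of these data known. Without symbols, the genes named are the 4 of highest spread and, per comparison, the 2 of smallest p in each direction. Lists of gene symbols and marker genes were not analysed here, because 0 IDs matched the 47357 reference genes. Total counts ran from 15.4 to 51.7 M, and the counting error this gives is stated in the results.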

Additional observations from a re-analysis of the deposited data

Results flagged for a closer look

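In each group of 7 libraries, the named genes and the cluster means were searched for a highest or lowest library set apart from the nearest of the others by Dixon's 95% limit. Of 72 such searches 23 found one, where chance gives about 1 in 20 for normally distributed values. Single genes were searched as CPM, where high values lie farther apart and low values closer together than on a log scale. The variable genes were chosen for their spread, which favours such libraries, so the number is a description.

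NAc H3.3WT replicate 17 and NAc H3.3Q5A replicate 3 appeared 8 times together. Replicate 17 stood at 6.98 for the mean log2(CPM + 1) of cluster B (nearest 5.28) and at 3.63 for cluster C (nearest 5.50). It held 96.6 CPM of ENSRNOG00000056970 (nearest 43.3) and 37.8 CPM of ENSRNOG00000010004 (nearest 18.7). Replicate 3 stood at 7.07 for cluster B (nearest 5.48) and at 4.78 for cluster C (nearest 5.60). It held 71.5 CPM of ENSRNOG00000010004 (nearest 18.6) and 149 CPM of ENSRNOG00000005479, its lowest (nearest 314).

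mPFC H3.3WT replicate 13 stood at 6.004 for cluster A (nearest 3.84) and held 20.4 CPM of ENSRNOG00000058006 (nearest 3.62). NAc H3.3Q5A replicate 19 stood at 4.45 for cluster A (nearest 3.53) and held 17.9 CPM of ENSRNOG00000003666 (nearest 2.35). mPFC H3.3Q5A replicate 2 held 81.9 CPM of ENSRNOG00000003666 (nearest 14.4).

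Cluster E and 2 of its genes set apart 1 library in each mPFC group. In mPFC H3.3Q5A replicate 37 the cluster stood at 7.30 (nearest 3.82), ENSRNOG00000056970 at 307.6 CPM (nearest 27.5) and ENSRNOG00000061254 at 48.5 CPM (nearest 6.22). In mPFC H3.3WT replicate 36 the cluster stood at 4.92 (nearest 3.86), ENSRNOG00000056970 at 69.7 CPM (nearest 33.5) and ENSRNOG00000061254 at 12.7 CPM (nearest 6.30).

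The other 4 were single genes. ENSRNOG00000014350 had 49.5 CPM in mPFC H3.3Q5A replicate 4 (nearest 22.1). ENSRNOG00000059865 had 11.5 CPM in NAc H3.3WT replicate 23 (nearest 6.41) and 25.99 CPM in NAc H3.3Q5A replicate 22 (nearest 12.4). ENSRNOG00000010004 had 10.7 CPM in mPFC H3.3WT replicate 35 (nearest 7.53).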

How the results depend on the processing

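With each library left out in turn, 0 of the 100 genes passed the test for the virus in NAc, in mPFC or for the interaction, as with DESeq2, no filter, no mark term or 1 mark alone. The counts below that threshold moved. Genes at an unadjusted p under 0.05 ranged from 3 to 11 in NAc, 4 to 15 in mPFC, 1 to 6 for the interaction and 22 to 52 between regions. Genes above 0 ranged from 26 to 62, 28 to 77, 18 to 70 and 25 to 36 in the same order, and genes passing between regions from 20 to 37. Membership kept 72 to 99 genes and the largest cluster held 48 to 50. With no mark term, 32 were above 0 in mPFC and 1 had an unadjusted p under 0.05 for the interaction. Among P1 libraries alone, NAc gave 23 at an unadjusted p under 0.05 and 32 above 0, mPFC 34 above 0, and the interaction 10 at an unadjusted p under 0.05 and −0.19 for ENSRNOG00000005479. Among P2 libraries alone, these were 3 at an unadjusted p under 0.05 in NAc, 11 in mPFC and 18 between regions, 17 above 0 for the interaction, and 11 passing between regions. With P1 alone, 11.4% of all genes had an unadjusted p under 0.05 in NAc and 7.48% for the interaction. With P2 alone, 2.43% did in NAc, 7.65% in mPFC and 51.2% between regions. Ranked by median absolute deviation, 54 of the 100 stayed, and 66 stayed without mPFC H3.3WT replicate 13 and NAc H3.3WT replicate 17 together. Fits on 1 mark use fewer libraries; other causes of these moves were not tested. No paired analysis was possible because the groups compared share fewer than 2 replicate numbers. Counting error computed at the group mean CPM was at most 2.93% of the within-group variance of these genes, and other effects of depth were not tested.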
